A study of Mus musculus with 8 samples.

Results

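The kinesin family was measured in starved and unstarved IMCD3 cells, an established epithelial cell line derived from the collecting ducts of mouse inner medulla, in the kidney. Its members were taken by name, as every non-control array probe whose gene name was Kif followed by a digit, or Kifap3, Kifc1, Kifc2 or Kifc3. They were 79 of 41174 probes and covered 38 of 27599 gene names once old symbols had been updated. This naming rule uses no measured value, but it was set with earlier results of these data known. Starved cells had spent 48 h without fetal calf serum, a treatment used to make them grow cilia. Unstarved cells had 10% serum and had been replated sparsely 1 day earlier, so that serum and cell density differed together between the groups. Both groups came from the same unmodified line in the same basal medium, and each of 4 Agilent arrays read in 2 colours held 1 starved and 1 unstarved sample. By the labels arrays 1 and 3 were replicate 1, with starved RNA in Cy5, and arrays 2 and 4 were replicate 2, with starved RNA in Cy3. Replicate and dye orientation therefore cannot be told apart.

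Kinesins are motor proteins that use ATP to move along microtubules or to take them apart. One set assembles the mitotic spindle and separates dividing cells, and another carries vesicles, organelles and protein complexes. Yet others serve the cilium: the heterotrimer of Kif3a, Kif3b and Kifap3 pulls intraflagellar transport trains from the base of the cilium to its tip. Collecting duct cells carry a primary cilium, which most cultured cells build after they leave the cell cycle. By these textbook roles the 38 genes were placed as 11 mitotic, 14 transport and 8 ciliary kinesins, with 5 others.

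Probes of called members with large changes (Kif12, Kif27, Kif9, Kifc3 and Kifc2), and the pair of Kif1b probes called in opposite directions, are shown first, because every value below is the signal of such a 60-base oligonucleotide. They are written 5′ to 3′ in lower case, as the array files give them. Positions are those of the array design in build mm8. The files do not say which exon or untranslated region a probe lies in. Each probe shown holds an uninterrupted reading frame, which does not place it in coding sequence. The brightest probes of Kif12 and Kifc3 also hold such a frame and are not shown.
Kif12, its second probe (chromosome 4, minus strand, chr4:62652294-62652590, across an interval wider than the probe): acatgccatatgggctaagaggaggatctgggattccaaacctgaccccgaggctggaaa
Kif27 (chromosome 13, minus strand, chr13:58297781-58297840): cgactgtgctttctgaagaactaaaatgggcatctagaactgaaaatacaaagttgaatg
Kif9 (chromosome 9, plus strand, from chr9:110366155-110369733, across an interval wider than the probe): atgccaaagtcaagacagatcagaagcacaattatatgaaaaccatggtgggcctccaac
Kifc3, its second probe (chromosome 8, minus strand, chr8:97992569-97992628): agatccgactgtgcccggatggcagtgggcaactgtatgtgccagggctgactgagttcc
Kifc2 (chromosome 15, plus strand, chr15:76495330-76495399): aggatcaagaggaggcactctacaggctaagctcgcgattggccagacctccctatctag
Kif1b, upstream probe (chromosome 4, minus strand, chr4:148081432-148081491): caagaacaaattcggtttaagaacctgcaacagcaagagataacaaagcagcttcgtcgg
Kif1b, downstream probe (chromosome 4, minus strand, chr4:148020891-148020950): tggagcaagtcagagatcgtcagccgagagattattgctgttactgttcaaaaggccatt

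In 1 group or both, 35 of the 38 kinesin genes had a signal that the scanner software set well above background on every array, and they were tested among the 16081 genes that met this rule. Kif17, a ciliary motor, and Kif2b, a spindle motor, were not well above background and have no value. The member probe of Kif26b was not either, and a probe outside the naming rule gave a log2 ratio of 0.05 for that gene. In limma, with Benjamini-Hochberg adjusted p below 0.05 over all genes, 10 of the 35 kinesin genes rose in starved cells (28.6%) and 3 fell (8.57%). Among all genes tested 18.1% rose and 13.3% fell, and 31.4% passed in either direction, against 37.1% of the kinesin genes. At an unadjusted p under 0.05, 40.9% of all genes passed in either direction, against 40% of the kinesin genes. The signal at least doubled in each replicate, a 2-fold change, for 4 kinesin genes and dropped as far for 0 of the 35, when 2.2% and 1.36% of all genes moved that far up or down. The 4 that rose so far were Kif12, Kifc3, Kif27 and Kifc2. The sign was the same on all 4 arrays for 22 kinesin genes (62.9%) and in both replicates for 23 (65.7%), shares that lie below the 69.3% and 74.9% of all genes. The median log2 ratio of starved over unstarved was 0.11 over the kinesin genes and 0.0054 over all genes. Centring each array on its median, in place of loess, left 0 kinesin genes called in limma (4 higher and 0 lower at an unadjusted p under 0.05) and 1.55% of all genes. All 13 calls kept their sign there, with adjusted p between 0.113 and 1.

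**Figure D1:**
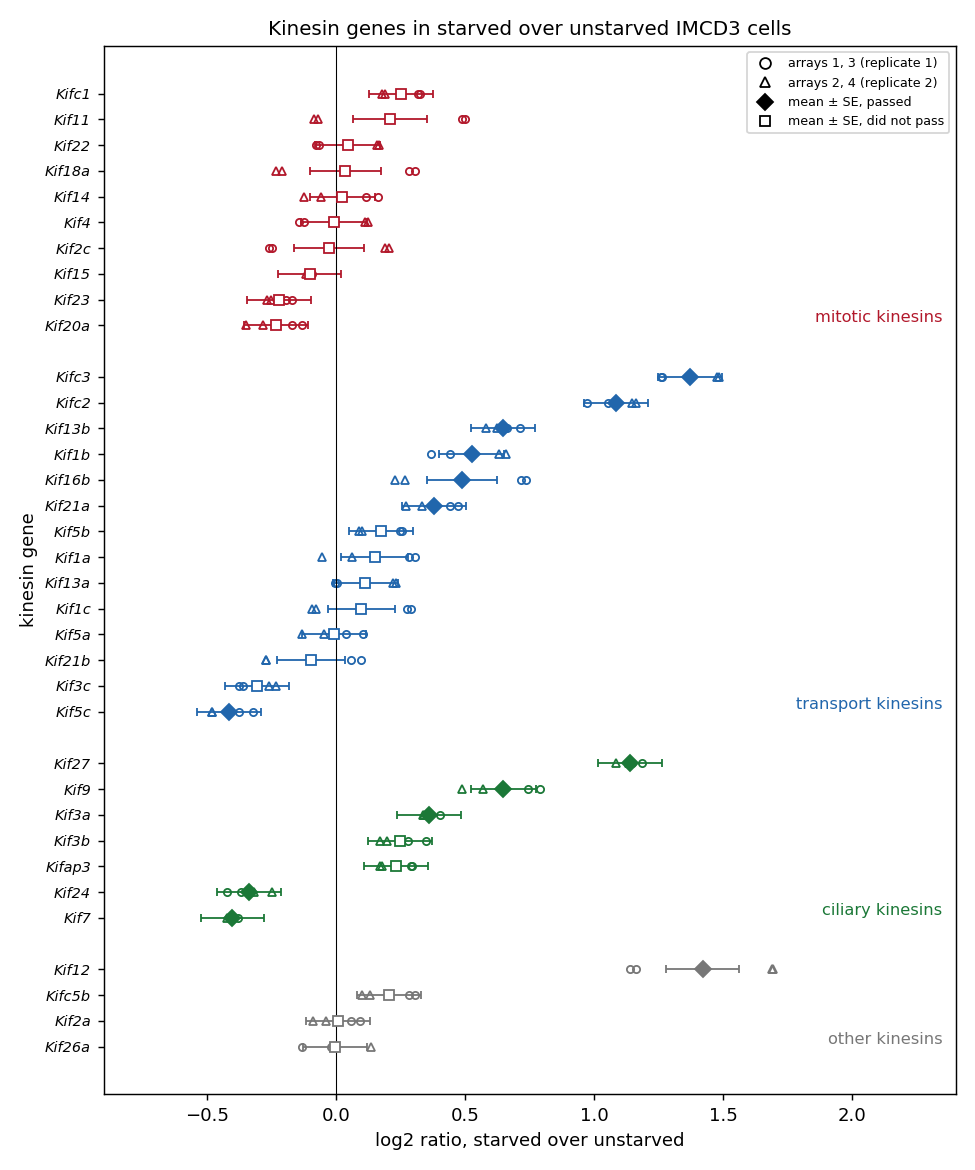
Log2 ratio of starved over unstarved signal for the 35 tested kinesin genes, grouped by role. Open circles are arrays 1 and 3 (replicate 1) and open triangles arrays 2 and 4 (replicate 2). Larger symbols are the mean of both replicates with its moderated standard error from limma, filled where the gene passed. The mitotic genes lie between -0.23 and 0.25 and none is filled, while transport genes reach 1.37 and ciliary genes 1.14.

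No mitotic kinesin passed the test. In limma 0 of the 10 tested rose and 0 fell, when 31.4% of all genes passed in either direction. At an unadjusted p under 0.05 the counts were also 0 and 0, when 40.9% of all genes passed. The mitotic ratios ran from -0.23 to 0.25, and 5 lay on either side of 0. Their median was 0.0078 over the mean of both replicates. It was -0.08 within each replicate, and several genes took opposite signs in the replicates. Kifc1, a minus-end-directed motor of the spindle poles, had normalized single-channel log2 intensities, given here and below for arrays 1 to 4, of 14.45, 14.20, 14.37 and 14.11 in starved cells, against 14.12, 14.01, 14.05 and 13.93 in unstarved cells. The groups overlapped, and its ratio was 0.25 ± 0.12 (SE, n = 2, adjusted p = 0.136). The array design places this probe near that of Kifc5b, a copy of Kifc1 treated below, so the value may not be that of Kifc1. Each SE is limma's moderated standard error, drawn toward a value shared across the fit, and is not the spread of the 2 replicates. Kif11, also called Eg5, which pushes the spindle poles apart, had 12.39, 12.10, 12.49 and 11.96 in starved cells and 11.88, 12.19, 12.0 and 12.03 in unstarved cells. It stood higher in the starved sample of both replicate 1 arrays and lower in that of both replicate 2 arrays, with a replicate ratio of 0.50 and -0.08.

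Opposite signs in the replicates also marked Kif18a, which damps chromosome movement at the metaphase plate (0.29 in replicate 1 and -0.22 in replicate 2). Kif2c, a microtubule depolymerase at centromeres, had -0.25 and 0.20. Kif22, which acts on chromosome arms, gave a mean of 0.05. Kif14, a cytokinesis motor, gave 0.02, and Kif4, which acts in chromosome condensation and at the midzone, gave -0.01. Each of these 3 also had a sign that changed between the replicates.

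Kif20a and Kif23, the kinesin-6 motors of the central spindle and cytokinesis, were the lowest of the mitotic genes. Kif23 had log2 intensities of 13.83, 13.78, 13.81 and 13.90 in starved cells and 14.0, 14.03, 14.0 and 14.17 in unstarved cells. All 4 starved values lay below all 4 unstarved ones, as they did for 23.5% of all genes, but the ratio of -0.22 ± 0.12 (SE, n = 2, adjusted p = 0.191) did not pass. Kif20a had 16.32, 16.09, 16.12 and 16.12 in starved cells against 16.45, 16.44, 16.29 and 16.40 in unstarved cells, which overlapped, at -0.23 ± 0.12 (SE, n = 2, adjusted p = 0.173). Kif15, a spindle motor that can act beside Kif11, had -0.10, with -0.10 and -0.11 in the replicates.

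Genes that work with these motors were measured as well. Of 21 tested partners of the mitotic kinesins (chromosomal passenger, centralspindlin and spindle assembly genes and cell cycle markers), 1 rose and 0 fell in limma (3 higher and 4 lower at an unadjusted p under 0.05), with a median of -0.03. Of all genes, 31.4% passed in limma in either direction, and 40.9% did so unadjusted. The one that rose was Mki67, the proliferation antigen Ki-67, at 0.51 ± 0.13 (SE, n = 2, adjusted p = 0.00532). Kif18b and Kif20b, mitotic kinesins whose array names fell outside the naming rule, had -0.11 and -0.10, and neither passed. Kif18b had 0.17 in replicate 1 and -0.39 in replicate 2. Dimmer Kif20b probes gave 0.14 and 0.16 and did not pass either (adjusted p = 0.469 and 0.392 in limma over all probes).

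The ciliary kinesins split in direction. Of 7 tested, 3 rose (42.9%, against 18.1% of all genes), 2 fell (28.6%, against 13.3%) and 2 did not pass. Their median log2 ratio was 0.25. All starved values lay above all unstarved ones for 5 of them, against 28.3% of all genes. Kif27, a relative of Kif7 that is linked to motile cilia in mice, rose most. It had log2 intensities of 8.51, 8.47, 8.54 and 8.35 in starved cells, against 7.32, 7.34, 7.39 and 7.26 in unstarved cells. The groups were far apart, and the difference was 2.2-fold, or 1.14 ± 0.12 (SE, n = 2, adjusted p = 2.75e-06). Its unstarved signal was dim, and with Agilent's processed signals, which carry no offset, the ratio was 1.88. A second probe named Kif27 lies on the opposite strand and was not above background.

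Kif9, a motor of motile cilia and of the sperm flagellum in mice, had 8.73, 8.48, 8.68 and 8.46 in starved cells and 7.94, 7.90, 7.94 and 7.98 in unstarved cells. The starved values were all higher, more so in replicate 1, and the gene rose by 0.65 ± 0.13 (SE, n = 2, adjusted p = 0.000931). Kif3a, a motor subunit of heterotrimeric kinesin-2, had 12.57, 12.58, 12.54 and 12.60 in starved cells and 12.17, 12.24, 12.18 and 12.26 in unstarved cells. These groups were narrow and apart, and Kif3a rose 1.28-fold, or 0.36 ± 0.12 (SE, n = 2, adjusted p = 0.0347). A second Kif3a probe gave 0.63 (adjusted p = 0.00147 in limma over all probes). The call of the brighter probe was lost with Agilent's processed signals (0.34, adjusted p = 0.0749 in limma).

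The other subunits of that motor took the same sign without passing. Kif3b, the second motor subunit, had 10.61, 10.52, 10.54 and 10.60 in starved cells, against 10.26, 10.35, 10.26 and 10.40 in unstarved cells, a ratio of 0.25 ± 0.12 (SE, n = 2, adjusted p = 0.143). Kifap3, the subunit that links the motors to cargo, had 12.78, 12.80, 12.79 and 12.71 in starved cells, against 12.48, 12.62, 12.50 and 12.54 in unstarved cells, a ratio of 0.23 ± 0.12 (SE, n = 2, adjusted p = 0.17). For both, every starved sample was above every unstarved one, and all probes tested of each gene were positive. The 3 subunits thus had ratios of 0.36, 0.25 and 0.23.

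The ciliary genes that fell are both regulators. Kif7, which organises the tip of the cilium and acts in Hedgehog signalling, had 9.35, 9.33, 9.27 and 9.34 in starved cells and 9.75, 9.75, 9.64 and 9.75 in unstarved cells. The groups did not overlap, the replicates gave -0.39 and -0.41, and Kif7 fell by 0.40 ± 0.12 on the log2 scale (SE, n = 2, adjusted p = 0.0199). Kif24, which restrains cilium formation at the mother centriole in human cells, had 9.48, 9.59, 9.65 and 9.21 in starved cells and 9.85, 9.83, 10.07 and 9.53 in unstarved cells. These ranges overlapped, but the starved sample was lower on each array, and the ratio was -0.34 ± 0.12 (SE, n = 2, adjusted p = 0.0475). Its second probe gave 0.08, and the mean of both probes, -0.13, did not pass (adjusted p = 0.41 in limma). Leaving out array 3 or array 4 also ended the Kif24 call, with adjusted p of 0.0572 and 0.0629 in limma.

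Among 12 tested partners of the ciliary kinesins (intraflagellar transport, its dynein motor, and the proteins Kif7 and Kif24 act with), 4 rose and 0 fell in limma (8 higher and 0 lower at an unadjusted p under 0.05), with a median of 0.29. Over all genes 18.1% rose in limma, and unadjusted 40.9% passed in either direction. Ift81 and Ift74, which form the tubulin-binding part of the transport train, had 0.62 ± 0.13 and 0.52 ± 0.13 (SE, n = 2, adjusted p = 0.00202 and 0.00689 in limma). Dync2h1, the heavy chain of the dynein that returns the train to the base, had 0.48 ± 0.13 (adjusted p = 0.00884). All 4 had larger ratios in replicate 1 than in replicate 2, as did Kif3a, Kif3b, Kifap3 and Kif9.

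**Figure D2:**
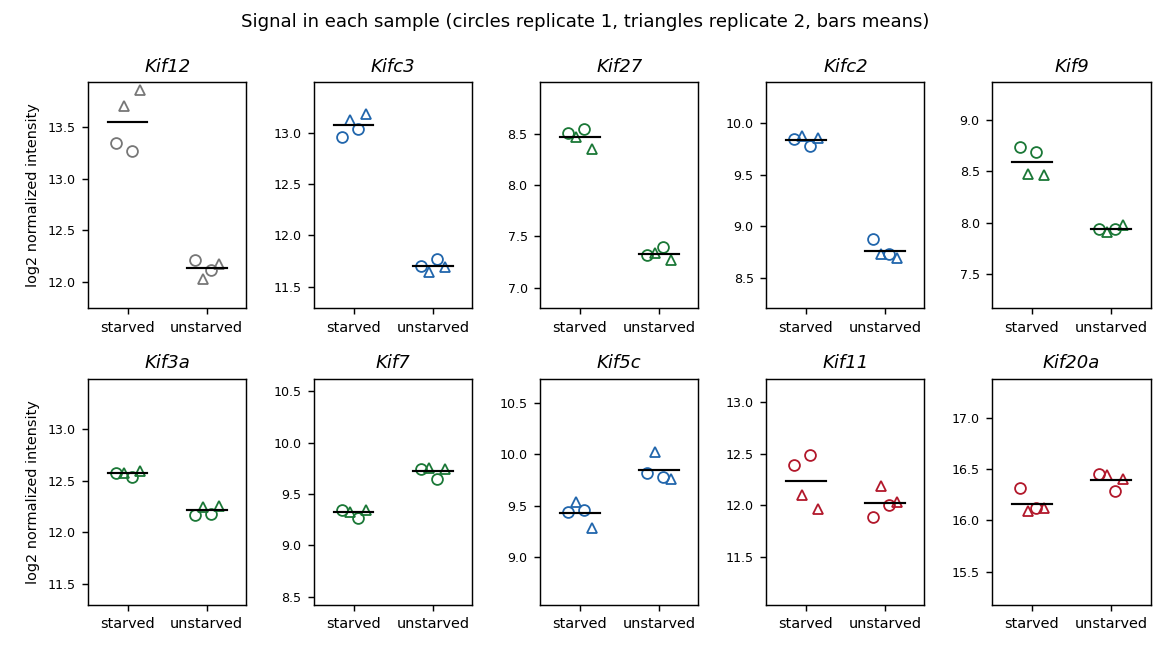
Normalized log2 signal of 10 kinesin genes in each sample, starved on the left and unstarved on the right of each panel, with circles for replicate 1, triangles for replicate 2 and bars for the mean of 4 samples. Every panel spans the same log2 range. Kif12, Kifc3, Kif27 and Kifc2 show the widest gaps, Kif7 and Kif5c lie lower in starved cells, and Kif11 and Kif20a overlap.

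Transport kinesins gave calls in both directions. Of 14 tested, 6 rose (42.9%, against 18.1% of all genes), 1 fell (7.14%, against 13.3%) and 7 did not pass. Their median log2 ratio was 0.16. Starved and unstarved values did not overlap for 8 of them, with the starved ones above for 6 and below for 2, against 28.3% and 23.5% of all genes. Kifc3, a minus-end-directed motor that acts in apical transport and at cell junctions of epithelia, had log2 intensities of 12.96, 13.12, 13.03 and 13.18 in starved cells, against 11.70, 11.65, 11.77 and 11.70 in unstarved cells. The gap was the widest of the transport genes at 2.59-fold, or 1.37 ± 0.13 (SE, n = 2, adjusted p = 4.46e-07), and a second probe gave 1.07. Kifc2, a minus-end-directed motor described in neurons, had 9.85, 9.88, 9.78 and 9.85 in starved cells and 8.88, 8.73, 8.73 and 8.69 in unstarved cells. It rose 2.12-fold, or 1.08 ± 0.12 (SE, n = 2, adjusted p = 5.2e-06), with no overlap.

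Kif13b, which carries membrane cargo and the scaffold protein Dlg1, had 8.73, 8.65, 8.69 and 8.64 in starved cells and 8.01, 8.02, 8.02 and 8.06 in unstarved cells. Both groups were tight, and the ratio was 0.65 ± 0.12 (SE, n = 2, adjusted p = 0.000787). A dimmer probe farther upstream gave a larger ratio, 1.01 (adjusted p = 9.76e-06 in limma over all probes). Kif16b, which moves early endosomes outward, had 11.07, 10.85, 11.14 and 10.87 in starved cells and 10.34, 10.58, 10.42 and 10.64 in unstarved cells. All starved values were higher, but the replicates differed: the ratio of 0.49 ± 0.14 (SE, n = 2, adjusted p = 0.0121) came from 0.73 in replicate 1 and 0.25 in replicate 2. A second, dimmer Kif16b probe gave 0.20 and did not pass (adjusted p = 0.258 in limma over all probes). Kif21a, a kinesin-4 motor that slows microtubule growth at the cell cortex, rose by 0.38 ± 0.12 (SE, n = 2, adjusted p = 0.0283). A second Kif21a probe, well above background on 4 starved arrays but only 1 unstarved array, gave 0.20. The mean of all Kif21a probes, 0.29, did not pass (adjusted p = 0.0664 in limma).

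Kif5c, a heavy chain of conventional kinesin (kinesin-1), was the transport gene that fell. It had 9.44, 9.54, 9.45 and 9.28 in starved cells, against 9.81, 10.02, 9.77 and 9.76 in unstarved cells, without overlap, and fell by 0.41 ± 0.12 on the log2 scale (SE, n = 2, adjusted p = 0.0175). Its relatives did not pass: the broadly expressed heavy chain Kif5b had 0.17 and the neuronal Kif5a had -0.01. Kif3c, a kinesin-2 motor that pairs with Kif3a in place of Kif3b, had 11.44, 11.65, 11.77 and 11.80 in starved cells and 11.82, 11.90, 12.13 and 12.03 in unstarved cells. Its starved values all lay below, but the ratio of -0.31 ± 0.12 (SE, n = 2, adjusted p = 0.0699) did not pass. Kif3c thus had groups without overlap and no call, as Kif23 did among the mitotic genes.

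Apart from Kif1b, the remaining transport genes had ratios between -0.10 and 0.15 and did not pass. Kif1a, a carrier of synaptic vesicle precursors, had 0.15. Kif13a, which carries mannose-6-phosphate receptors, had 0.11, and Kif1c, a carrier of dense-core vesicles, had 0.10. Kif21b, a relative of Kif21a, had -0.10. For another Kif1c probe the arrays of replicate 1 gave -0.51 and -0.50 and those of replicate 2 gave 0.53 and 0.53, so its mean of 0.01 hides a sign that followed replicate and dye.

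Kif1b, which makes motors for mitochondria and for synaptic vesicle precursors from different transcripts, was called in both directions by different probes. Its brightest probe stands for the gene, which rose by 0.53 ± 0.13 (SE, n = 2, adjusted p = 0.00445), with log2 intensities of 11.68, 11.76, 11.65 and 11.69 in starved cells and 11.23, 11.12, 11.28 and 11.03 in unstarved cells. That probe is the downstream one shown above, and on arrays 1 to 4 its ratios were 0.44, 0.63, 0.37 and 0.66 (adjusted p = 0.00517 in limma over all probes). A probe near it at chr4:148021890-148021949 was of the same sign, with 0.26, 0.40, 0.37 and 0.30, and did not pass (0.33, adjusted p = 0.0561). The upstream probe shown above went the other way, with -0.45, -0.45, -0.41 and -0.53 on the 4 arrays (mean -0.46 ± 0.13, SE, n = 2, adjusted p = 0.011). A probe 1.42 kb downstream of that one had -0.02, -0.67, -0.13 and -0.55, also below 0 on every array (mean -0.34, adjusted p = 0.0797). The downstream pair lies 59.54 and 60.54 kb from the first probe. The array assigns the upstream pair to another RefSeq transcript than the downstream pair. Averaged over the 4 probes the gene had 0.01 and did not pass (adjusted p = 0.933 in limma). Of the 21 kinesin genes with more than 1 tested probe, Kif1b was the only one with calls in both directions, and the difference between its probes was not tested.

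**Figure D3:**
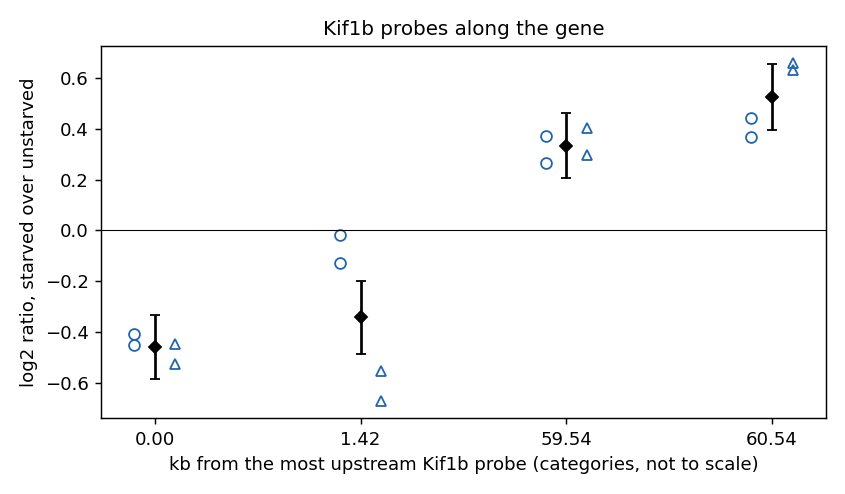
Log2 ratio of starved over unstarved signal for the 4 Kif1b probes in the order of transcription. Circles are the arrays of replicate 1, triangles those of replicate 2, and diamonds the mean of both replicates with its moderated standard error from limma. The probes at 0 and 1.42 kb lie below 0 on all 4 arrays, and those at 59.54 and 60.54 kb above 0 on all 4.

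Probes of Kif24, Kif1c, Kif13a, Kif11, Kif21b and Kif2a also differed in sign, with no call among them over all probes. Probes of Kif12, Kifc3, Kif13b and Kif3a passed with 2 probes each, in the same direction. Of the 63 kinesin probes tested 17 passed (27%), against 29.5% of all probes.

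Among the other kinesins Kif12 had the largest ratio of the whole family. Kif12 is expressed in kidney epithelium and has been linked to the severity of polycystic kidney disease in mice. It had log2 intensities of 13.35, 13.71, 13.27 and 13.87 in starved cells, against 12.21, 12.02, 12.11 and 12.17 in unstarved cells. All starved values were higher, most on the arrays of replicate 2, and the gene rose 2.68-fold, or 1.42 ± 0.14 (SE, n = 2, adjusted p = 1.03e-06). Its replicates gave 1.15 and 1.69, and a second probe gave 1.15. Kif2a, a microtubule depolymerase, had 0.01, and Kif26a, which lacks a working motor in mice, had -0.01. Kifc5b, a near-identical copy of Kifc1, had 0.20, and signal of these copies cannot be cleanly assigned. In build mm8 the array design places the Kifc1 probe at chr17:26659711-26659763 and the Kifc5b probe at chr17:26653488-26653867, both on the plus strand. In GRCm38.p6 the promoter of Kifc5b lies at chr17:26916841-26917090 on the plus strand. That of Kifc1 lies at chr17:33890634-33890883 on the minus strand.

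The genes were also set out by sequence family, to be read beside the 18.1% of all genes that rose and the 13.3% that fell. Of 7 kinesin-3 genes 3 rose and 0 fell by their brightest probes, with every such ratio above 0, from 0.02 for Kif14 to 0.65 for Kif13b. Other probes of Kif1b (-0.46, called lower, and -0.34), Kif1c (-0.22) and Kif13a (-0.05) were below 0. Of 4 kinesin-14 genes, the minus-end-directed motors, 2 rose, and the range was 0.20 to 1.37. The 5 kinesin-4 genes gave 2 that rose and 1 that fell, and the 3 tested kinesin-13 genes, the depolymerases and Kif24, gave 1 that fell. The 3 kinesin-1 genes gave 0 that rose and 1 that fell (median -0.01), and of the 3 tested kinesin-2 genes 1 rose and 0 fell, with ratios from -0.31 for Kif3c to 0.36 for Kif3a. Both kinesin-6 genes were below 0 and neither passed. These families were set out after the values were known and carry no test.

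**Figure D4:**
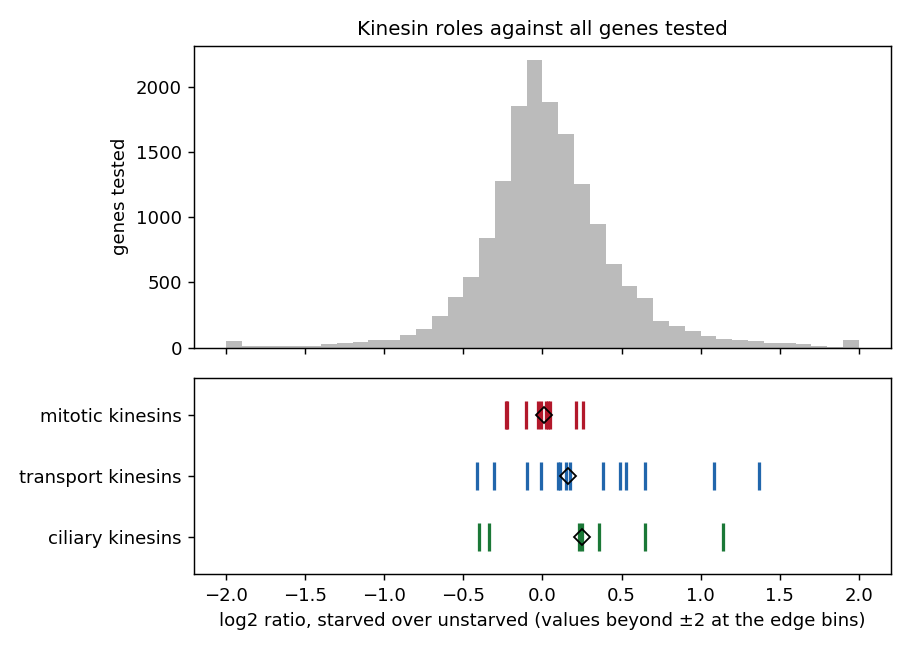
Log2 ratios of all 16081 tested genes (upper panel, counts per 0.1 bin) and of the single genes of each kinesin role (lower panel, one tick a gene, diamond at the median). The mitotic ticks sit around 0 with a median of 0.0078, and the medians of the transport and ciliary genes are 0.16 and 0.25.

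Proteins that connect kinesins to cargo and the opposing motor were measured too. Of 17 tested light chains and cargo adaptors 3 rose (17.6%) and 2 fell (11.8%), near the 18.1% and 13.3% of all genes. Klc4 and Klc3, kinesin-1 light chains, had 1.02 ± 0.13 and 0.58 ± 0.12 (SE, n = 2, adjusted p = 1.16e-05 and 0.00173 in limma), while the light chain Klc1 fell by 0.53 ± 0.13 (adjusted p = 0.00663). The adaptor Fez2 fell by 0.49, and Kifbp, which binds and blocks several kinesins, rose by 0.53 (adjusted p = 0.00381 in limma). Dimmer Kifbp probes gave 0.21 and 0.09 and did not pass (adjusted p = 0.232 and 0.631 in limma over all probes). Of 23 tested genes of cytoplasmic dynein and dynactin, the minus-end-directed counterpart, 0 rose and 1 fell in limma (1 higher and 3 lower at an unadjusted p under 0.05), when 31.4% of all genes passed in either direction, and 40.9% unadjusted. The one was the light chain Dynll1 (-0.42, adjusted p = 0.0451), with -0.07 in replicate 1 and -0.76 in replicate 2.

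Promoter sequence was available in RefSeq (GRCm38.p6) for 28 of the 35 tested kinesin genes and was searched over the 250 bases before the annotated start, on both strands. GTTGCC, the core of the X-box that RFX factors bind at ciliary genes, was found for 3 of 7 ciliary kinesins (42.9%), 2 of 8 transport kinesins (25%) and 2 of 9 mitotic kinesins (22.2%), against 11.8% of 27025 genes with a promoter and 12.5% of those tested here. The cell cycle element TTTGAA (the CHR core) was found for 5 of 9 mitotic kinesins (55.6%), 1 of 7 ciliary and 1 of 8 transport kinesins, against 18.3% of all genes and 12.7% of those tested. The matches of Kif14 and Kif2c (mitotic), Kif27 (ciliary) and Kif1a (transport) lie in windows that end in the letters ag. Introns end so too, so these windows may lie before inner exons, which was not checked. Kif27 and Kif1a are the only ciliary and transport matches to this element. The CCAAT box was found for 6 of 9 mitotic, 5 of 7 ciliary and 1 of 8 transport kinesins, against 37.5% and 40.5%. None of these strings contains another. The other 7 genes are Kif5a, Kif5b, Kif13b, Kif20a, Kif21b, Kifc2 and Kifc3. A match is a string of letters, and binding was not measured. The ciliary kinesins with the X-box core are Kif9 and Kif3a, which rose, and Kif24, which fell. The transport kinesins with it are Kif16b, which rose, and Kif3c, which did not pass. The mitotic ones are Kif18a and Kif23. The windows of Kif9 and Kif3a are shown as examples, and another Kif9 window at chr9:110476708-110476957 holds 0 matches. They are 5′ to 3′ on the coding strand, with the motifs in capitals; the reverse of the CCAAT box reads ATTGG.
Kif9 (chromosome 9, plus strand, chr9:110476744-110476993): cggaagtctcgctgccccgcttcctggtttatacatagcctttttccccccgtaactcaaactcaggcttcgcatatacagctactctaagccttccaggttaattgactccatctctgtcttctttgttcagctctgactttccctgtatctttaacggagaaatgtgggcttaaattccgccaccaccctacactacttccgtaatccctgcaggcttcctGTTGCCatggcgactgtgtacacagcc
Kif3a (chromosome 11, plus strand, chr11:53567119-53567368): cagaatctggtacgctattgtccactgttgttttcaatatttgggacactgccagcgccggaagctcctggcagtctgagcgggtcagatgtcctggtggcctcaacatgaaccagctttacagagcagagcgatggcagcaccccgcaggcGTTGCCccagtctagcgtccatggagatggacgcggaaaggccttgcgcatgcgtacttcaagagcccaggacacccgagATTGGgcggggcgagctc

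Markers were read beside these results. Of 17 collecting duct and epithelial markers 16 were tested, and Scnn1b was not above background on any array. Their summed linear signal was 551500 to 643200 in starved samples and 635800 to 697200 in unstarved samples. Yet 7 of the 16 rose (43.8%) and 2 fell (12.5%) in limma, against 18.1% and 13.3% of all genes. The markers with the largest changes were Cldn8 (4.49), Scnn1g (2.30) and Avpr2 (1.11), which rose, and Krt19 (-0.90) and Krt8 (-0.64), which fell. Avpr2 was well above background in 4 starved but only 1 unstarved sample, so its ratio is set against signal near background. Of 9 fibroblast markers 3 were tested, with sums of 569 to 640 in starved and 960 to 1076 in unstarved samples. Col1a1 (-1.01) and Postn (-1.03) fell in limma, and Col1a2 (-0.11) did not pass. Postn was well above background in 0 starved and 4 unstarved samples, so it was tested only through the group where it is high. Thy1, Pdgfra, Pdgfrb, Dcn, Lum and Col3a1 were at background on all arrays. Of 10 endothelial and leukocyte markers 4 were tested (sums of 916 to 1030 in starved and 1055 to 1224 in unstarved samples), with Pecam1, Cdh5, Kdr, Tie1 and Itgam not above background. Tek, well above background in at most 3 starved and at most 3 unstarved samples, was not tested. The only call was Ptprc, which fell (-0.50) and was well above background in 2 starved and 4 unstarved samples. Of 7 neuronal markers 3 were tested (6327 to 28210 in starved and 6948 to 34340 in unstarved samples), of which Map2 rose (1.37), Tubb3 fell by 0.37 and Syn1 had -0.19. The part of these markers in the kinesin results was not tested. In such bulk samples fewer cells of a kind and less RNA per cell cannot be told apart.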

How the data were processed

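Samples were grouped by their labels into 4 starved and 4 unstarved channels on 4 arrays, on 1 slide and in 1 scan per the file headers. The authors' deposited spot intensity values (mean signal and local background) were, per the file headers, extracted from the scans with Agilent Feature Extraction 9.5.3.1. Agilent's processed intensity and the deposited value table, of unstated scaling, served as alternatives. The deposited flags mark spots above background. Here, signals were corrected with normexp (offset 50) and loess in limma 3.58.1 (R 4.3.3), and single-channel log2 levels additionally with Aquantile. Of 45018 spots 1639 were controls, 583 were flagged over the arrays and 0 saturated. A gene is its brightest probe above background on all 4 arrays in 1 group. Both arrays of a replicate were averaged, and 2 replicate ratios were fitted with lmFit and eBayes (two-sided, Benjamini-Hochberg, 0.05). Standard errors therefore rest largely on 14.9 prior degrees of freedom. The 2 replicates, which leave 1 residual degree of freedom, limit precision. The labels' treatment protocol names 2 dishes per group. Names came from accessions for 24375 probes, and 8076 kept the array name. The fit was tested on simulated data. Kinesin members, roles and lists were chosen with earlier results of these data known. Every kinesin is named; of other lists, up to 3 called genes per direction. Probe sequences shown have an open frame, but not every such probe is shown. Series text describes a dye swap within each pair, at odds with the labels, which were followed.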

Additional observations from a re-analysis of the deposited data

How the results depend on the processing

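The other ways of pairing arrays made up replicates from arrays that correlated less (0.824 to 0.83 between replicates, against 0.991 within). They raised the kinesin counts to 21 higher and 8 lower (arrays 1 with 2) and to 20 and 8 (1 with 4). A dye term, which here is the same as a replicate term, gave 21 and 9. Each of these fits leaves the difference between replicates out of its error, and 87.7% to 88.9% of all genes passed. Median centring gave 0 and 0 in limma, and its cause was not tested. Without the replicate block, in a fit that ignores the pairing within arrays, 10 rose and 3 fell, as with the replicate as a random block; Kif24 lost its call in both and Kif3c gained one. Same-numbered samples deviated from their group means with a correlation of -0.30 across genes, but they carry opposite dyes, so the pairing could not be checked. The count over the remaining settings was 8 to 10 higher and 2 or 3 lower. The median of the mitotic kinesins was -0.12 with median centring, 0.0016 with offset 10, -0.022 with processed signals or the deposited table, 0.014 without a filter, -0.0015 over all probes and 0.0064 with Kif2a counted as mitotic. Leaving out 1 array or replicate put it between -0.084 and 0.0145. The same omissions put that of the transport kinesins between 0.148 and 0.288. Kif16b had 0.25 without replicate 1. None of the 13 called ratios changed sign under the settings run. Dim probes, such as those of Kif27, Kif26a and Kif5a, lie near background, where the offset draws ratios toward 0.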
